A study of Mus musculus with 6 samples.

Results

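The mitochondrial respiratory chain and ATP synthase are built from subunits of both genomes, and the nuclear genes for them are described here in CD11b+ cells of the mouse brain. Members were the protein-coding rows outside chromosome M whose symbols begin with Nduf, Uqcr, Cox4 to Cox8 or Atp5, or are Cyc1 or Sdha to Sdhd. This gave 90 of the 19225 listed genes. By symbol, 46 belonged to complex I, 4 to complex II, 9 to complex III, 14 to complex IV and 17 to complex V. The complex I group held 8 Ndufaf genes, which encode assembly factors rather than subunits. It also held Ndufa4, whose product is a subunit of complex IV despite its symbol.

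RNA was measured in 6 libraries, 1 per mouse, from stress-naïve males labelled as 3 months old. Of these, 3 were Cnr1+/+ (genotype label wt/wt, strain label C57BL6/J) and 3 were Cnr1-/- (genotype label d/d, strain label Cnr1 tm1Zim, an allele in which a neomycin cassette interrupts the coding region in all cells of the body). Cnr1 encodes the cannabinoid receptor CB1. Brains were perfused and dissociated, myelin was removed, and cells were enriched with CD11b MicroBeads before 3′ mRNA sequencing, which reads the ends of transcripts. P-values therefore measure the spread between mice within a genotype label, and with 3 against 3 mice an exact permutation test cannot go below 0.1.

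Complexes I and II pass electrons from NADH and succinate to ubiquinone, complex III passes them on to cytochrome c, and complex IV reduces oxygen. Complexes I, III and IV pump protons, and complex V, the ATP synthase, uses the gradient to make ATP. Microglia, the resident macrophages of the brain, rely on this chain in the resting state and are known to shift towards glycolysis when activated.

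Cnr1 itself was listed at 0 in all 3 libraries labelled Cnr1+/+. It was at 1.41, 1.21 and 1.79 CPM (reads scaled to a common library size) in those labelled Cnr1-/-, which is 13, 13 and 15 reads. The reads thus split fully by label, in the direction opposite to lower RNA of the disrupted gene. Transcript-end reads may lie outside the interrupted coding region, but where they lie was not examined. The reason for the split, exchanged labels included, was not tested. This gene therefore does not check the labels, and groups are named here by label. Microglial identity was checked with 10 marker genes, all of which were tested. Their summed level was 14349 to 16570 CPM in the libraries labelled Cnr1+/+ and 15446 to 16479 CPM in those labelled Cnr1-/-. The library labelled Cnr1-/- replicate 2 stood apart in blood cell markers, with 4031 CPM over 9 neutrophil genes against 263 to 521 CPM in the others, and 2342 CPM over 7 erythrocyte genes against 136 to 237 CPM. The neutrophil gene Mpo was listed at 0 in 4 libraries. In such bulk samples, fewer cells of a type and less RNA per cell cannot be told apart.

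The start regions of 5 members are shown first. Cox6a1, Uqcr10 and Ndufa5 had a nominal call between the genotype labels, Ndufs8 had labels that did not overlap, and Sdhb is a core subunit shown for its sequence matches alone. RefSeq start regions, from 250 bases before to 50 after a start site on GRCm38.p6, were found for 74 of the 90 members (79 regions in all). They are printed 5′ to 3′ on the gene's strand. Capitals mark matches, on either strand, to GCGCATGC (a core of the NRF-1 site), CCGGAAG (an ETS site of the kind that GABP binds), AAGATGGCG (YY1) or TGACCTTG (the ERR receptors).
Cox6a1, chr5:115348909-115349208, minus strand: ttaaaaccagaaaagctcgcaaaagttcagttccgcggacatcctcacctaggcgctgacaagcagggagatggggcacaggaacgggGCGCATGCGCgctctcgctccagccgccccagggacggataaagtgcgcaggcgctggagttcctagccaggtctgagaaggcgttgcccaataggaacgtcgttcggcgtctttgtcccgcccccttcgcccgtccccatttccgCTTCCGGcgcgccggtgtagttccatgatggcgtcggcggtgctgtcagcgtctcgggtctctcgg
Uqcr10, chr11:4704295-4704594, minus strand: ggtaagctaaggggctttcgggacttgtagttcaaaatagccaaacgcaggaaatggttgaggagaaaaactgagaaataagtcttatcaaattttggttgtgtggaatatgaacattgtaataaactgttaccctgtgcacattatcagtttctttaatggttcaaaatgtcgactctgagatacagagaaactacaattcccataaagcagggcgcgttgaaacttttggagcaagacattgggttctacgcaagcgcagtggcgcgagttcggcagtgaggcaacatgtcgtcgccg
Ndufa5, chr6:24527477-24527776, minus strand: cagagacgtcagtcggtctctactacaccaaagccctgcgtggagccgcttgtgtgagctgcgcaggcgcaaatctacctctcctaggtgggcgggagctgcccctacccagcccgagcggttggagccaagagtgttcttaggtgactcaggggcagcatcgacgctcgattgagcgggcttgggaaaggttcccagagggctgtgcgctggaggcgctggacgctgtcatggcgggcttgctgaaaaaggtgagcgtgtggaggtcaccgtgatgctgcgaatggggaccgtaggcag
Ndufs8, chr19:3912725-3913024, minus strand: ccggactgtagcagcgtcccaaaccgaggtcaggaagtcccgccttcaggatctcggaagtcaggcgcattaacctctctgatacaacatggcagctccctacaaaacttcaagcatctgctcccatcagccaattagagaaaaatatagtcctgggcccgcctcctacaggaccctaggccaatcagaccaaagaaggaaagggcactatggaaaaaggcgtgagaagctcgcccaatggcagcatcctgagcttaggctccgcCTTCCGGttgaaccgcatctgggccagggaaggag
Sdhb, chr4:140961021-140961320, plus strand: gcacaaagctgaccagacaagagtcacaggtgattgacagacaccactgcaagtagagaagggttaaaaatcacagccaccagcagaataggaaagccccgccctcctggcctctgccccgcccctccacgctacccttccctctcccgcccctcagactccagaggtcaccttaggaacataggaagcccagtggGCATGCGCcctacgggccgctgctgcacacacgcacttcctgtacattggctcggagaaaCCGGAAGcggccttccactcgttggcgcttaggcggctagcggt

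The Cox6a1 region held the NRF-1 letters on both strands in overlap, beginning at positions -162 and -160, and the ETS letters at position -16. Negative positions lie before the start site, and there is no position 0. Sdhb, shown as a core subunit with the same pair of matches, held them at positions -54 and 7. Ndufs8 held the ETS letters alone, at position 16. The windows of Uqcr10 and Ndufa5 held none of the 4. Over all member regions, 15.2% held the NRF-1 letters, against 2.71% of the 32851 start regions in the reference table and 5.45% of those of the genes tested. For the ETS letters these shares were 24.1%, 8.86% and 20.1%. The YY1 letters were in 10.1% of member regions, 1.40% of all and 3.58% of those of tested genes, and the ERR letters in 5.06%, 1.56% and 1.04%. A plain GC box (GGGCGG) was in 44.3% of member regions, 35.7% of all and 64.1% of those of tested genes. Median GC content was 58.7% for members, 52.7% for all and 61.7% for tested genes. These are matches of letters only, and several spellings were looked at before these were kept.

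The members were expressed at a moderate level in these cells. Their mean over the 6 libraries ranged from 0.433 CPM (Cox7a1) to 97.5 CPM (Atp5a1, the alpha subunit in the catalytic head of ATP synthase), with a median of 30.5 CPM. A mean of at least 10 CPM, needed for testing, was reached by 78 of the 90, and 54 of these 78 lay above the median level of all genes tested. Transcript-end reads count molecules rather than bases, so these CPM values were not divided by length. Among those tested, the median was 54.6 CPM for complex II (3 genes), 54.2 CPM for complex IV and 45.0 CPM for complex V, against 25.5 CPM for complex I and 27.7 CPM for complex III. The highest in each complex were Ndufa2 (59.0 CPM), Sdhb (58.7 CPM), Uqcrh (53.5 CPM), Cox8a (93.2 CPM) and Atp5a1.

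**Figure D1:**
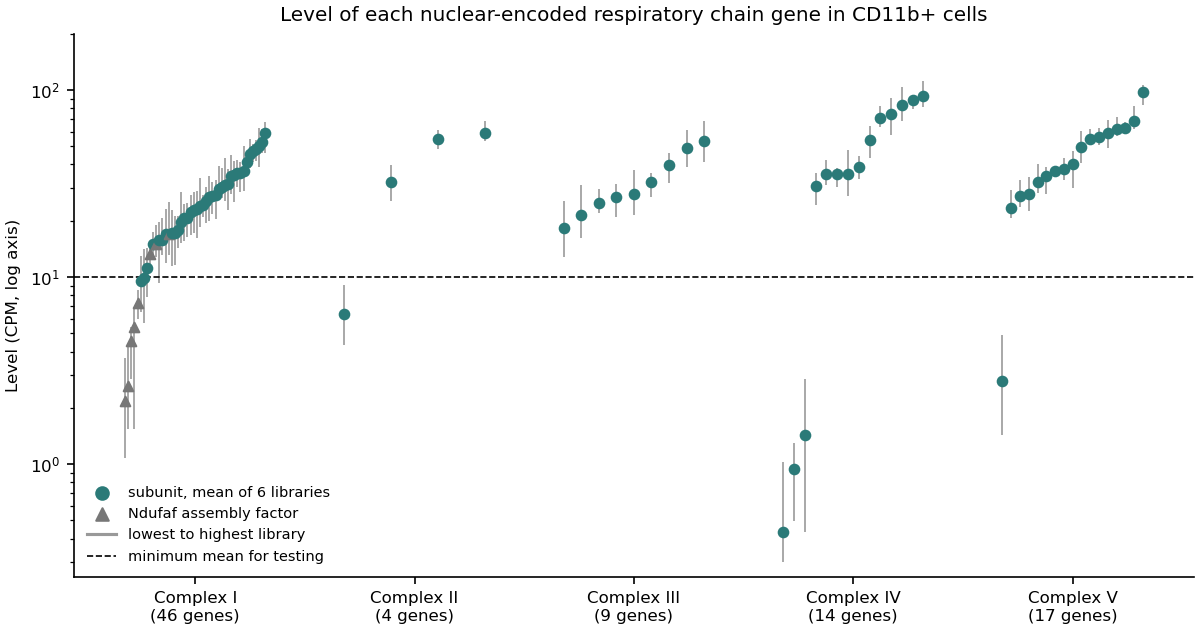
Mean level of each of the 90 members over 6 libraries (CPM, log axis), by complex, with grey lines from the lowest to the highest library; lines are clipped at the lower end of the axis. Most subunits lie between 10 and 100 CPM, while 12 members, 5 of the 8 Ndufaf assembly factors (triangles) among them, lie below the dashed line at 10 CPM.

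Subunits of the same complex were not at the same level. In complex II, Sdha (flavoprotein), Sdhb (iron-sulphur protein) and Sdhc (membrane anchor) were at 54.6, 58.7 and 32.3 CPM, whereas Sdhd, the second anchor, was at 6.31 CPM. In complex I, the 8 Ndufaf genes had a median of 6.36 CPM against 26.1 CPM for the 38 other genes, and 5 of the 8 were below the minimum for testing. Among core subunits of complex I, which carry the flavin and iron-sulphur centres, Ndufv1 was at 20.7 CPM and Ndufs7 at 29.4 CPM.

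Isoform genes showed the ubiquitous rather than the muscle or testis forms. Cox6a1 exceeded its heart and muscle form Cox6a2 by 88.3-fold in mean level (83.2 against 0.943 CPM). Cox7a2 was at 38.8 CPM and its muscle form Cox7a1 at 0.433 CPM, with 0 reads of Cox7a1 in 2 libraries and at most 11 in the others. Cox6b1 was 37.9-fold above the testis form Cox6b2 (54.2 against 1.43 CPM). The common form was higher in all 6 libraries for each of these 3 pairs. The 3 genes for the identical mature c-ring subunit of ATP synthase, which fall outside the naming rule and were chosen after their values were seen, were ordered Atp5g3 (62.6 CPM), Atp5g1 (23.5 CPM) and Atp5g2 (2.79 CPM). Their ranges over the 6 libraries did not overlap.

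Some levels are uncertain because reads can belong to a neighbour or a copy. The authors divided ambiguous reads by expectation-maximisation, and 11 processed pseudogenes carry symbols of the same pattern. Ndufb4c was at 17.9 CPM, above Ndufb4 at 9.55 CPM, and Cox6c2 was at 8.35 CPM beside Cox6c at 71.0 CPM. On the same strand, Cox4i1 lies within Gm20388 (4.49 CPM), and Atp5o overlaps Cryzl1 (14.6 CPM) and Donson (5.07 CPM). Pseudogenes and overlapping genes were chosen for naming after their values were seen.

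As a whole the nuclear respiratory genes were at nearly the same level in both genotype labels. Summed over the 90 members, the libraries labelled Cnr1+/+ held 2827, 2788 and 3157 CPM and those labelled Cnr1-/- held 2850, 3364 and 3041 CPM. The mean was 2924 ± 203 (SD, n = 3) against 3085 ± 260 CPM (SD, n = 3), a log2 ratio of 0.08, and the groups overlapped. As a share of all listed CPM the members took 0.564%, 0.516% and 0.582% in Cnr1+/+ and 0.533%, 0.569% and 0.523% in Cnr1-/-. The log2 ratio became 0.00 once libraries were centred on their medians, -0.02 with equal totals over listed genes outside chromosome M and -0.01 after quantile normalisation.

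**Figure D2:**
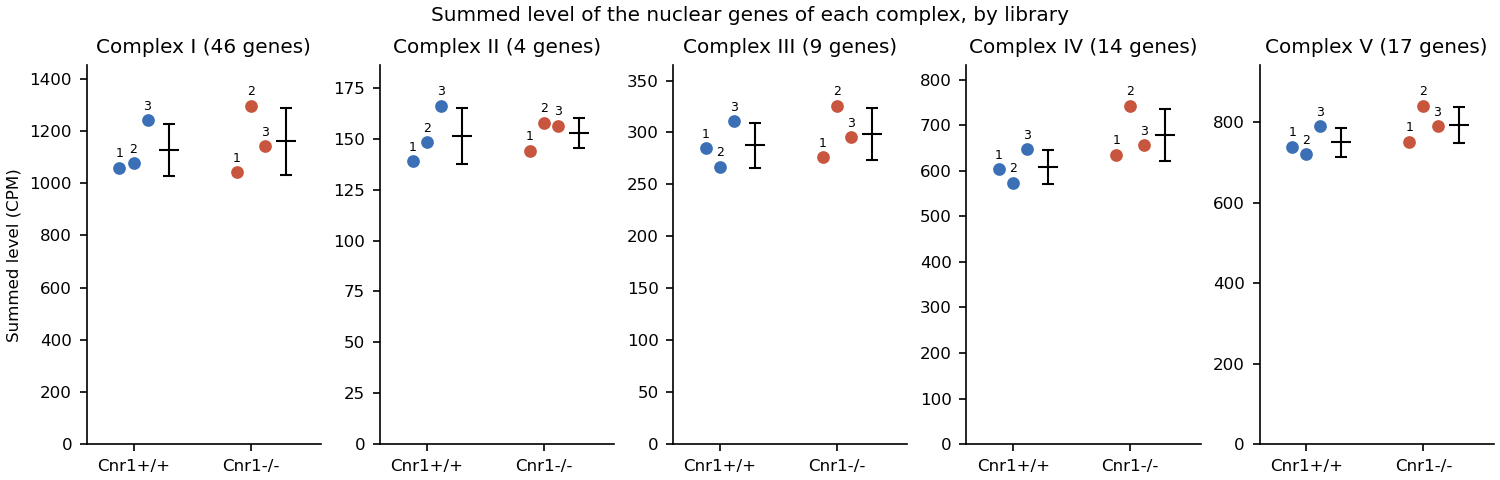
Summed level (CPM) of the nuclear genes of each complex in each library, numbered by replicate, with the mean and SD of 3 libraries beside the points; each panel has its own axis from 0. The genotype labels overlap in all 5 panels, and Cnr1-/- replicate 2 is the highest library in 4 of them.

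The libraries did not differ by genotype label alone. Before any rescaling, Cnr1-/- replicate 2 was the highest of the 6 for 34 of the 78 tested members (43.6%, against 31.7% of all genes tested), and Cnr1+/+ replicate 1 was the lowest for 24 (30.8%, against 38.1%). After centring, Cnr1+/+ replicate 1 was the highest for 20 (25.6%, against 20.02% of all genes) and Cnr1-/- replicate 2 for 17 (21.8%, against 13.8%). Cnr1-/- replicate 2 is the library with the neutrophil and erythrocyte markers, and without it the log2 ratio of the summed members was 0.01.

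Single members were compared between genotype labels with limma over the 6659 genes that reached the minimum level. A nominal p under 0.05 was found for 4 of 78 members (5.13%), against 6.02% of all genes tested. Of these, 3 were higher in Cnr1-/- (Cox6a1, Uqcr10 and Uqcrc2; background 5.09%) and 1 was lower (Ndufa5; background 0.931%). At the stricter threshold, a fold change over 1.5 together with an adjusted p under 0.1, there were 0 members with limma, against 0.0901% of all genes (6 genes). The smallest adjusted p of a member was 0.599. The share of members with a nominal call was thus close to the background. Without Cnr1-/- replicate 3 there was 1 nominal call among the members (1.28%, against 4.74% of all genes tested), that of Cox6a1. The libraries of the labels did not overlap for 6 of 78 members, 5 with Cnr1-/- higher (8.85% of all genes tested) and 1 with Cnr1-/- lower (2.13%). The 5 were Cox6a1, Uqcrc2, Ndufs8, Atp5l and Ndufaf8, the last 2 named after their values were seen, and the 1 was Ndufa5.

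The median log2 fold change was 0.06 over the 78 members and 0.08 over all genes tested, with 48 members positive (61.5%, against 68.4% of all genes tested) and 30 negative. By complex the medians were 0.03 (I), 0.01 (II), -0.02 (III), 0.11 (IV) and 0.10 (V). Centring the libraries on their medians moved the median of all genes to 0.01 and that of the members to -0.01. In that fit 3 members had a nominal p under 0.05 (5.63% of all genes did). Of these, 1 was higher (Cox6a1) and 2 were lower (Ndufa5 and Uqcrh). Over all genes this rescaling turned 339 higher and 62 lower calls into 197 and 178.

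The median standard error of a member's log2 fold change was 0.18. For 54 of the 78 members the 95% interval lay within a 1.5-fold change in both directions, and for the other 24 it reached past that. No point estimate exceeded 1.5-fold, the largest being 0.42 on the log2 scale. Each tested member had between 60 and 1204 reads in a library.

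**Figure D3:**
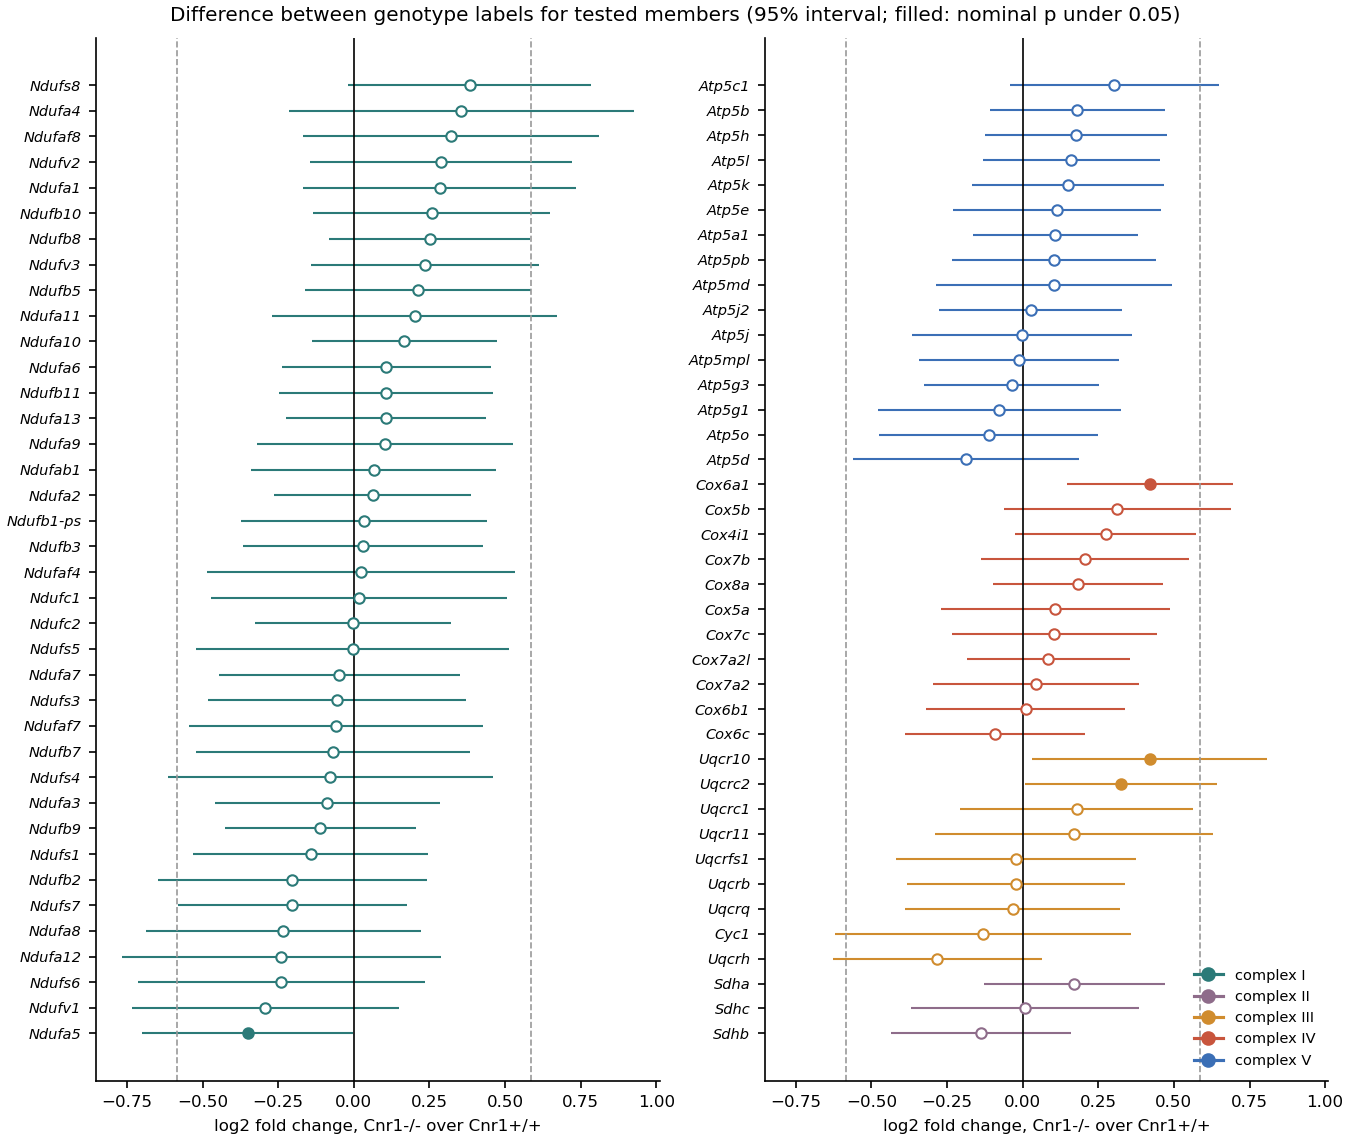
Log2 fold change of Cnr1-/- over Cnr1+/+ with its 95% interval for tested members, complex I on the left and complexes II to V on the right; dashed lines mark a 1.5-fold change and filled points a nominal p under 0.05. Points lie on both sides of 0, the 4 filled points are Cox6a1, Uqcr10, Uqcrc2 and Ndufa5, and in complex IV 10 of 11 points lie above 0.

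Complex IV held the member with the smallest p. Cox6a1 (chr5:115345642-115348982, minus strand, mm10), the ubiquitous form of a small regulatory subunit at the dimer interface of cytochrome c oxidase, was at 68.1, 70.7 and 74.6 CPM in Cnr1+/+ and at 93.4, 103 and 89.2 CPM in Cnr1-/-. All 3 libraries labelled Cnr1-/- were above all 3 labelled Cnr1+/+. The log2 fold change was 0.42 ± 0.13 (SE), or 1.34-fold, and limma gave a nominal p of 0.0041 (adjusted p of 0.599). The exact permutation p was 0.1, the smallest this design allows. By nominal p it ranked 45 among the 6659 genes. It kept a nominal p under 0.05 under each of the 14 alternative settings (log2 fold change 0.32 to 0.47, adjusted p 0.379 to 0.999). These include the fit without Cnr1-/- replicate 2, the library with the blood cell markers, where the log2 fold change was 0.36.

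Among the other subunits of complex IV, Cox4i1, a regulatory subunit that joins early in assembly, was at 72.3, 57.4 and 72.1 CPM in Cnr1+/+ and 70.5, 90.2 and 83.4 CPM in Cnr1-/-. Cox5b, the zinc-binding subunit, was at 32.2, 27.0 and 35.7 CPM against 30.7, 47.8 and 40.8 CPM. Both overlapped between labels, with nominal p of 0.071 and 0.098 (adjusted p of 0.839 for each, limma). Cox4i1 gained a nominal call without Cnr1+/+ replicate 1 or 3 or Cnr1-/- replicate 1 (log2 fold change 0.33, 0.33 and 0.37, against 0.27 with all). Cox5b gained 1 without Cnr1-/- replicate 1 (0.49, against 0.31). Cox5a had a log2 fold change of 0.11 and Cox8a one of 0.18, and the only negative value in the complex was Cox6c with -0.09. Of the 11 tested genes 10 were positive as deposited (90.9%, against 68.4% of all genes tested). After centring, quantile normalisation and equal totals 8, 7 and 7 were positive (72.7%, 63.6% and 63.6%, against 52.0%, 49.7% and 46.2% of all genes).

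**Figure D4:**
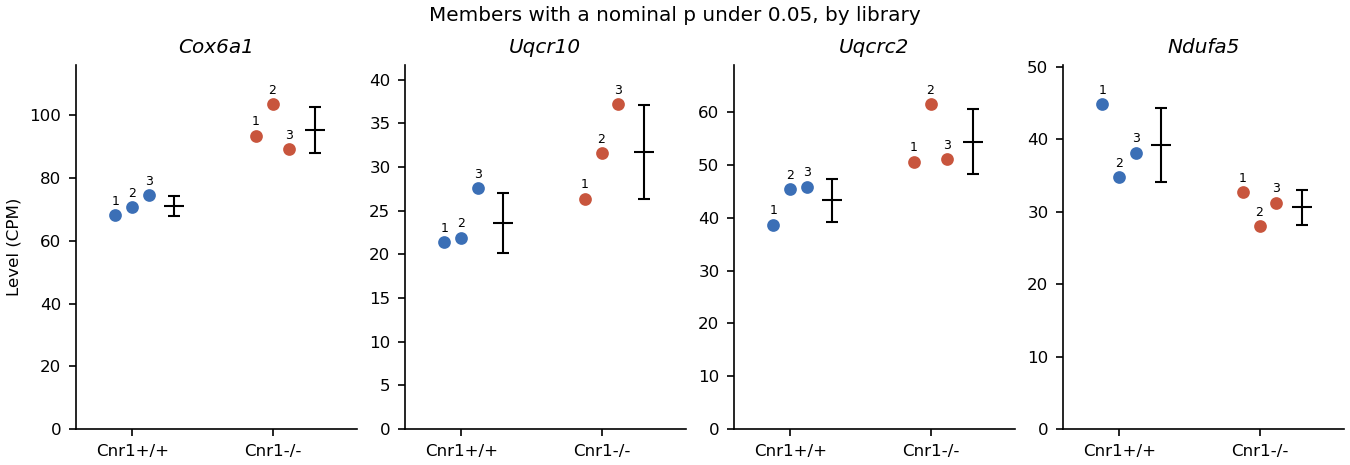
Level (CPM) of the 4 members with a nominal p under 0.05 in each library, numbered by replicate, with the mean and SD of 3 libraries beside the points; axes start at 0. The genotype labels do not overlap for Cox6a1, Uqcrc2 and Ndufa5 and overlap for Uqcr10, where Cnr1+/+ replicate 3 lies above Cnr1-/- replicate 1.

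Because a share within a library does not depend on its scaling, each complex was also expressed as a percentage of the members' summed level. Complex IV took 21.3%, 20.6% and 20.5% in Cnr1+/+ and 22.3%, 22.1% and 21.6% in Cnr1-/-, and these ranges did not overlap. The shares of the other 4 complexes did overlap. Full separation of 3 against 3 mice reaches no lower than 0.1 in an exact permutation test. Cox6a1 alone took 2.41%, 2.54% and 2.36% against 3.28%, 3.08% and 2.93%. With Cox6a1 left out, complex IV took 19.4%, 18.5% and 18.6% of the remaining sum against 19.6%, 19.6% and 19.2%, and the labels overlapped. Cox6a1 had been picked by its p in these same libraries, so leaving it out narrows the difference by construction. The log2 ratio of the shares was 0.08 with it and 0.05 without it. The overlap rests on Cnr1+/+ replicate 1 and Cnr1-/- replicate 3. Ndufa4 was counted with complex I here. It was at 7.78, 9.38 and 12.2 CPM against 9.96, 14.2 and 13.2 CPM, and the labels overlapped.

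**Figure D5:**
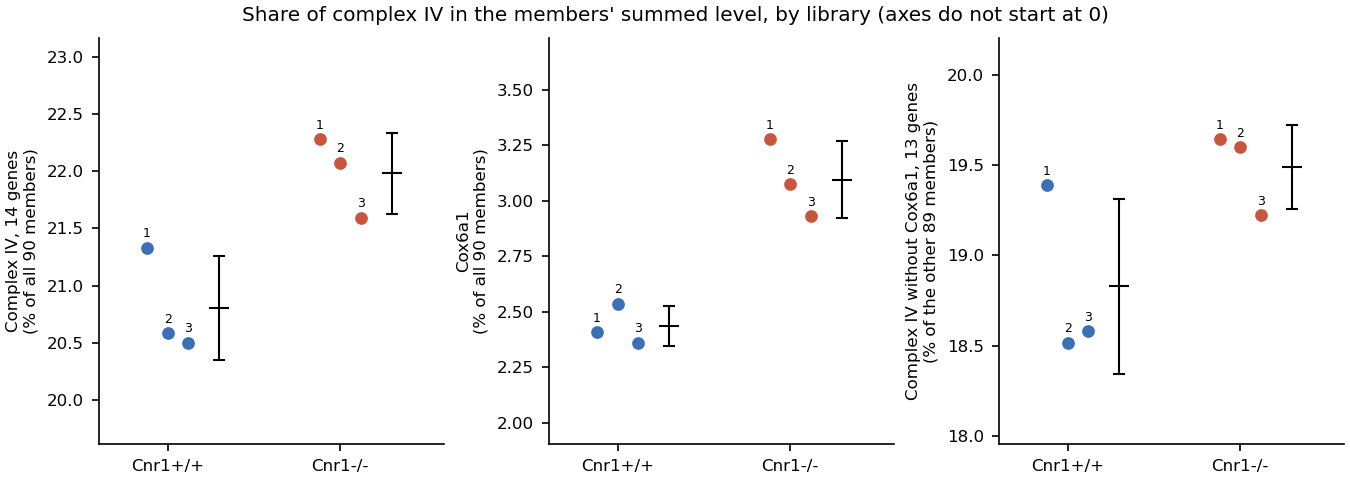
Share of complex IV, of Cox6a1 alone and of complex IV without Cox6a1 in the members' summed level (%), per library and numbered by replicate, with the mean and SD of 3 libraries; axes do not start at 0. The labels separate in the first and second panels, and in the third Cnr1+/+ replicate 1 (19.4%) lies above Cnr1-/- replicate 3 (19.2%).

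Complex III had 2 nominal calls among 9 tested members (22.2%), both higher in Cnr1-/- (5.09% of all genes tested). Uqcr10, a small subunit next to cytochrome c1, was at 21.4, 21.9 and 27.6 CPM in Cnr1+/+ and 26.4, 31.6 and 37.2 CPM in Cnr1-/-. The labels overlapped, with a log2 fold change of 0.42 ± 0.19 (SE), nominal p of 0.035 (adjusted p of 0.809, limma). Uqcrc2, a core protein on the matrix side, was at 38.7, 45.4 and 45.9 CPM against 50.6, 61.5 and 51.0 CPM, without overlap. Its log2 fold change was 0.33 ± 0.15 (SE), with a nominal p of 0.045 (adjusted p of 0.821, limma). Neither kept its nominal call under the 3 other scalings, where the log2 fold change was 0.34, 0.34 and 0.32 for Uqcr10 and 0.25, 0.24 and 0.23 for Uqcrc2. Uqcr10 also lost it without Cnr1+/+ replicates 1 or 2 or Cnr1-/- replicates 2 or 3 (log2 fold change 0.35, 0.37, 0.42 and 0.30). Uqcrc2 lost it without Cnr1+/+ replicates 1 or 2 or any of the Cnr1-/- replicates (0.25, 0.36, 0.37, 0.23 and 0.37), and, at an unchanged 0.33, without the variance trend in limma.

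The other redox and core subunits of complex III gave log2 fold changes of 0.18 (Uqcrc1), -0.02 (Uqcrfs1, the Rieske iron-sulphur protein) and -0.13 (Cyc1, cytochrome c1). Uqcrh, the hinge protein that helps cytochrome c1 meet cytochrome c, was at 68.0, 46.5 and 61.7 CPM in Cnr1+/+ and 45.1, 58.3 and 41.1 CPM in Cnr1-/-. The labels overlapped, and its log2 fold change of -0.28 had a nominal p of 0.106 as deposited. Under the 3 other scalings the log2 fold change was -0.36, -0.37 and -0.38 and the nominal p was 0.039, 0.040 and 0.032 (limma, adjusted p from 0.884 to 0.897). Leaving out 1 library gave -0.17 to -0.44, with a nominal call without Cnr1+/+ replicate 2 (-0.44) and without Cnr1-/- replicate 2 (-0.43).

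Complex I had 1 nominal call among 39 tested genes (2.56%, against 6.02% of all genes tested), and it was lower in Cnr1-/- (0.931% of all genes). Ndufa5, an accessory subunit of the hydrophilic arm, was at 44.8, 34.7 and 38.1 CPM in Cnr1+/+ and 32.7, 28.0 and 31.2 CPM in Cnr1-/-, without overlap. The log2 fold change was -0.35 ± 0.17 (SE), with a nominal p of 0.049 (adjusted p of 0.825, limma). It lost the nominal call in 6 of the 14 alternatives. These were the fit without the variance trend and those without Cnr1+/+ replicates 1 or 3 or any of the Cnr1-/- replicates (log2 fold change -0.25, -0.37, -0.40, -0.29 and -0.37).

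Core subunits of complex I had log2 fold changes on both sides of 0. Ndufs8, which holds iron-sulphur clusters near the ubiquinone site, was at 17.1, 19.95 and 22.8 CPM in Cnr1+/+ and 25.4, 28.4 and 24.0 CPM in Cnr1-/-. The labels did not overlap, yet the log2 fold change of 0.38 ± 0.20 (SE) had a nominal p of 0.060 (adjusted p of 0.829, limma). Ndufv1, which binds NADH and the flavin, went the other way with 20.9, 22.0 and 24.7 CPM against 16.1, 24.7 and 15.5 CPM. Its log2 fold change was -0.29, and its partner Ndufv2 had 0.29, both with overlapping labels. Ndufv1 gained a nominal call without Cnr1-/- replicate 2 (-0.51), and Ndufs8 gained 1 without Cnr1+/+ replicate 3 (0.48) and without the variance trend. Ndufs1, Ndufs3 and Ndufs7 were at -0.14, -0.06 and -0.20. The Ndufaf genes summed to 67.6 ± 6.49 CPM (SD, n = 3) in Cnr1+/+ and 67.4 ± 4.90 CPM (SD, n = 3) in Cnr1-/-.

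Complexes II and V had 0 nominal calls with limma among 3 and 16 tested members (adjusted p over 0.8 for each of them), where 6.02% of all genes tested had a call. Sdha, which oxidises succinate, was at 48.5, 51.6 and 54.1 CPM in Cnr1+/+ and 53.8, 58.8 and 60.9 CPM in Cnr1-/-. Sdhb was at 57.9, 58.8 and 68.2 CPM against 53.3, 60.0 and 54.4 CPM. The labels overlapped for both, with log2 fold changes of 0.17 and -0.14, and Sdhc had 0.01.

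In ATP synthase, the catalytic head subunits Atp5a1 and Atp5b had log2 fold changes of 0.11 and 0.18. Atp5a1 was at 83.3, 98.9 and 99.6 CPM against 101, 107 and 94.8 CPM, with overlap. The central stalk subunit Atp5c1 had the largest positive value of the complex, 0.30 (36.3, 42.9 and 30.0 CPM against 40.1, 46.3 and 47.3 CPM), and gained a nominal call without Cnr1+/+ replicate 2 (0.43). Atp5d, also of the central stalk, had the largest negative value, -0.19, and Atp5e had 0.11. The intervals of these 5 core subunits all included 0.

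The partner subunits encoded on chromosome M are read from polyadenylated transcripts of another genome. All 13 were tested, and 10 (76.9%) had a nominal p under 0.05, each higher in Cnr1-/- (5.09% of all genes tested); their median log2 fold change was 0.32. Their sum was 20091, 18298 and 16390 CPM in Cnr1+/+ and 20861, 20440 and 26104 CPM in Cnr1-/-. After centring, quantile normalisation or equal totals, 3 of the 13 had a nominal p under 0.05, all higher, with medians of 0.24, 0.18 and 0.22. Over all genes tested, 197 of 6659, 163 of 6659 and 142 of 6650 were called higher in these fits. Without the variance trend 2 had, without Cnr1+/+ replicate 3 there were 4 (median 0.24), and without Cnr1-/- replicate 3 there was 1 (median 0.21). All of these were higher, as were 317 of 6659, 548 of 6614 and 248 of 6628 of all genes tested. The ratio of this sum to that of the nuclear members was 7.11, 6.56 and 5.19 in Cnr1+/+ and 7.32, 6.08 and 8.58 in Cnr1-/-, so the labels overlapped.

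Other genes of the pathway were counted from lists. Of 45 further assembly factors, 15 were tested, with a median log2 fold change of -0.07 and 1 nominal call (6.67%), the lower Pet100 (a complex IV assembly factor, -0.41, adjusted p 0.825 with limma). Of 26 electron and metabolite carriers, 13 were tested, with a median of 0.08 and 2 nominal calls (15.4%), both higher in Cnr1-/-: Slc25a5, an ADP/ATP carrier of the inner membrane (0.42, adjusted p 0.702 with limma), and Sqor, which feeds electrons from sulphide to ubiquinone (0.41, adjusted p 0.809 with limma). Slc25a5 was at 52.7, 47.3 and 51.8 CPM in Cnr1+/+ and 64.5, 79.0 and 60.2 CPM in Cnr1-/-, without overlap. After centring Slc25a5 kept its nominal call and Sqor lost it (0.34 and 0.33). The 17 tested genes of the citric acid cycle and pyruvate dehydrogenase had 0 nominal calls with limma and a median of -0.01. The 20 tested genes of mitochondrial protein import had a median of 0.12 and 1 call (5%), the higher Timm9 (0.62, adjusted p 0.702 with limma). The 9 tested regulators of mitochondrial gene expression had 0 nominal calls with limma and a median of 0.11. Over all genes tested the median was 0.08, and 6.02% had a nominal call (5.09% higher and 0.931% lower in Cnr1-/-).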

How the data were processed

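RNA of CD11b+ cells from 6 mice (3 per genotype label, 1 library per mouse) was analysed, with groups taken from the sample titles and every sample column mapped (0 left out). Per the labels and methods, the authors trimmed the reads, aligned them to mm10 with STAR in Partek Flow, quantified them per gene by expectation-maximisation against Ensembl transcripts and scaled them by TMM. The deposited values are CPM after that scaling. The value of 1 read implied effective library sizes of 7708660 to 10723539 reads. Only 86.8% to 88.4% of values were whole multiples of 1 read (tolerance 0.1), so tests for counts were not used. Listed genes made up 50.1% to 59.1% of each scaled total. The limit that a count of 0 allows was 0.280 to 0.389 CPM (3 reads, counting error only).

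Values were transformed as log2(CPM + 0.1), and genes whose mean reached 10 CPM were fitted with limma 3.58.1 in R 4.3.3 (lmFit, eBayes with a mean-variance trend), with genotype as the only term. Benjamini-Hochberg adjustment ran over all 6659 genes. Fold changes are on the log2(CPM + 0.1) scale. For single members a two-sided exact permutation test was added. No set test was run, so lists are given by counts and medians beside all genes tested. Members and lists were chosen with earlier results of these data known. Members are named if they had a nominal p under 0.05, were core subunits or isoform pairs on the lists, or were the highest or the most changed of their complex in either direction. Deviations from the group means correlated at -0.06, -0.03 and -0.03 in same-numbered libraries, so no sign of pairing by number was seen. Such values cannot show how the mice were matched. The fit was tested on simulated data with known changes. Gene positions matched GENCODE vM21 for 88 of the 90 members. Alternatives covered the pseudocount, the minimum level, scaling, the variance trend, a replicate block and leaving out each library. Values of 1 member and 1 marker gene are not reported here singly.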

Additional observations from a re-analysis of the deposited data

How the results depend on the processing

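Of the 78 members tested, 4 had a nominal p under 0.05, and leaving out 1 library gave between 1 (without Cnr1-/- replicate 3, 1.28% against 4.74% of all genes) and 5 (without Cnr1+/+ replicate 3, 6.41% against 9.07%). With the replicate block there were 4, although nothing showed that the numbers pair the libraries, and 421 of all genes against 401 without it. The count of members past the adjusted p and fold threshold was 0 under every alternative run. The median log2 fold change of the members ran from -0.04 (equal totals without chromosome M) to 0.15 (without Cnr1+/+ replicate 3), and its sign followed the scaling. The count over all genes was 401 of 6659 (6.02%), 993 of 19225 (5.17%) when low genes were kept, 263 of 4126 (6.37%) at a minimum mean of 20 CPM and 251 (3.81%) without Cnr1-/- replicate 2. For the 33 named members tested, 460 values were computed under 14 alternatives: 425 kept their side of the nominal threshold, 22 lost a call and 13 gained 1. None with a call reversed, and 27 uncalled values in 8 members changed sign. The causes of the lost and gained calls were not tested. Depth limits the 12 members below 10 CPM, where Cox7a1 had 0 to 11 reads.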
